A study of Mus musculus with 21 samples.

Results

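The subcortical maternal complex genes were followed here across oocytes that differed in their Kif11 alleles and in the Cre recombinase they carried. The 8 genes were taken by name from 54232 genes counted: Nlrp5, Ooep, Tle6, Khdc3, Padi6, Nlrp2, Nlrp4f and Zbed3. Poly(A) RNA was measured by full-length cDNA amplification in 21 libraries, each from 3 full-grown mouse oocytes at the germinal vesicle (GV) stage. Kif11, the gene altered by the study, encodes a kinesin motor of the spindle. The 17 libraries of the Spo11-Cre background comprised 4 of Kif11 wt/fl without Cre (the control, which already carried a floxed allele), 5 of wt/fl Spo11-Cre, 4 of fl/del without Cre and 4 of fl/del Spo11-Cre. The fl allele is a floxed Kif11 allele, the del allele is a constitutive deletion present in every cell of the animal, and Spo11-Cre is expressed at the start of meiosis. The other 4 libraries carried floxed alleles on both chromosomes, 2 with Gdf9-Cre and 2 with Zp3-Cre, transgenes driven by promoters active in growing oocytes, and had no fl/fl group without Cre beside them. According to the methods the females were 3 to 4 months old, on a C57BL/6 background, and injected with eCG or CARD HyperOva, agents that stimulate follicle growth, before collection. A mouse gave 1 or 2 libraries, and a group may therefore hold fewer mice than libraries. Library names of the Spo11-Cre background share prefixes that may stand for mice, which the labels do not say. The main tests treat libraries as independent, so p-values below measure the spread between libraries, part of which may be technical.

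The subcortical maternal complex is a large protein assembly beneath the membrane of mammalian oocytes and early embryos. Its proteins are made from maternal mRNA stored during oocyte growth, and they persist into the cleaving embryo after the mRNA is lost. NLRP5 (MATER), OOEP (FLOPED), TLE6 and KHDC3 (FILIA) form or bind its core, PADI6 is needed for the cytoplasmic lattices of the oocyte, and NLRP2, NLRP4F and ZBED3 were found as further members. Embryos from females that lack such a gene typically arrest in early cleavage, and the complex is also known for its part in spindle positioning through actin.

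The genotype labels were checked against Kif11 itself, counted over all exons and given as CPM, counts scaled to a library total of 1000000. The 4 wt/fl libraries had 34.5 ± 8.46 CPM of Kif11 (mean ± SD, as throughout) and the 5 of wt/fl Spo11-Cre had 24.6 ± 5.04. Means were 11.9 ± 3.06 CPM in the fl/del libraries and 1.78 ± 0.685 in those of fl/del Spo11-Cre. It was at 5.11 and 4.90 CPM in the fl/fl Gdf9-Cre libraries and at 7.95 and 4.27 in the fl/fl Zp3-Cre libraries. Every wt/fl and wt/fl Spo11-Cre library lay above every library of the other 4 groups, and every fl/del Spo11-Cre library lay below every other library. Kif11 could not check the labels of groups that overlapped. These were wt/fl (23.8 to 43.2 CPM) with wt/fl Spo11-Cre (17.6 to 30.5), and the Gdf9-Cre with the Zp3-Cre libraries. The lowest fl/del library, at 7.49 CPM, also lay below the higher Zp3-Cre library. Total counts ranged from 7205010 to 18454549 per library (median 14060429). The 12 oocyte markers were all detected in every library and summed to 16857 to 23847 CPM. The 18 follicle cell markers summed to 73.5 to 125 CPM, most of it from Cyp19a1 at 46.5 to 80.5 CPM and Nr5a2 at 21.1 to 44.8, with Kitl at 1.74 to 7.42 CPM and Foxl2, Wt1 and Ptx3 at 0 in all 21 libraries. The 3 blood markers summed to at most 0.256 CPM. In libraries of a fixed number of oocytes, less RNA of a gene per oocyte and fewer contributing oocytes cannot be told apart.

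All 8 genes were abundant in every library, and together they took 1.32% to 1.93% of all counts. Compared per length, in the TPM values deposited by the authors (reads divided by gene length and scaled to a fixed total), Zbed3 stood highest of the 8, with a median of 5084 TPM over the 21 libraries and rank 16 among all genes by mean TPM. Zbed3 encodes a zinc finger protein that binds axin. Ooep, a KH domain gene, followed at 3174 TPM (rank 29), and Padi6, of the peptidylarginine deiminase family, at 2658 TPM (rank 41). These were followed by Tle6, a relative of the Groucho corepressors, at 1280.2 TPM (rank 102), and by the NOD-like receptor family genes Nlrp5 at 1010.2 TPM (rank 137) and Nlrp4f at 889 TPM (rank 149). The lowest were Nlrp2, at 261 TPM (rank 688), and Khdc3, at 99.2 TPM (rank 1645). Most steps in this order held in every library. Zbed3 exceeded Ooep, Padi6 exceeded Tle6, Tle6 exceeded Nlrp5, Nlrp4f exceeded Nlrp2 and Nlrp2 exceeded Khdc3 in 21 of 21 libraries. The exceptions were 2 pairs of neighbours that did not differ beyond their spread: Ooep exceeded Padi6 in 15 of 21 libraries, and Nlrp5 exceeded Nlrp4f in 14 of 21.

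**Figure D1:**
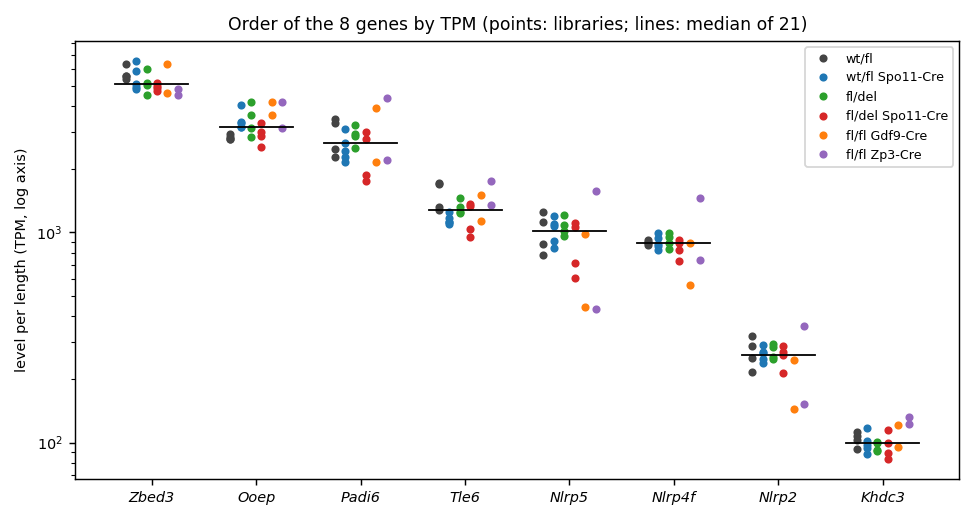
Level of each gene per length (TPM, log axis), with a point for each of the 21 libraries, coloured by group, and a line at the median. Zbed3 lies highest, with a median of 5084 TPM, and Khdc3 lowest, with 99.2 TPM. The ranges over libraries overlap for Ooep with Padi6, Padi6 with Tle6, Tle6 with Nlrp5 and Nlrp5 with Nlrp4f.

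The level of Khdc3 differed between the deposited tables more than that of the other members. On GRCm38, Khdc3 (chr9:73101836-73104438, plus strand) has 2050 exonic bases, of which 790 (38.5%) are shared with the same-strand gene Gm20509. Gm20509 had 0 counts in all 21 libraries. Counts in the table used here were 1.94 to 1.98 times those of a further deposited table for the other 7 members, and 1.35 times for Khdc3, a ratio that 0.117% of 8525 well-counted genes reached or fell below. In that table Khdc3 was at 107.5 to 154 CPM, still below every library of Nlrp2, at 217 to 496 CPM. The size of the step below Nlrp2 is therefore uncertain. In CPM the order of the pair was the same in both tables. CPM takes no account of length, and Nlrp2 has 3509 exonic bases. The order per length was not compared in the further table and is uncertain there. The other members lay at single loci: Nlrp5 at chr7:23385889-23441922, Nlrp2 at chr7:5298547-5351035, Ooep at chr9:78376109-78378725, Tle6 at chr10:81590904-81601073, Padi6 at chr4:140727355-140742643, Nlrp4f at chr13:65177111-65205977 and Zbed3 at chr13:95323612-95337841. Nlrp2 shares 105 exonic bases with the opposite-strand pseudogene Gm18757, which the unstranded kit could not separate from it.

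Across libraries the 8 genes varied to different degrees. The highest CPM was 3.45 times the lowest for Nlrp5, 2.41 times for Nlrp4f, 2.38 times for Padi6 and 2.31 times for Nlrp2. It was 1.72 times the lowest for Tle6, 1.69 times for Ooep, 1.60 times for Khdc3 and 1.45 times for Zbed3. For Nlrp5, Nlrp2 and Nlrp4f the lowest and highest libraries were all fl/fl, as described gene by gene below.

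Ooep, whose protein forms the core of the complex with NLRP5 and TLE6, was at 2510.0, 2399.7, 2609 and 2403 CPM in the 4 wt/fl libraries (mean 2480.2 ± 99.8). It was at 2957, 2836, 2928, 2841 and 3709 CPM in wt/fl Spo11-Cre (3054 ± 369.9). The ranges of these 2 groups did not overlap, and every wt/fl Spo11-Cre library lay above every wt/fl library. The share of all genes whose ranges separate between groups was not counted. Separations given here and below therefore only describe the gene named. Ooep was at 2469.9, 2759, 3799.9 and 3161 CPM in fl/del (3047 ± 576) and at 2256, 3053, 2636 and 2524 CPM in fl/del Spo11-Cre (2617 ± 332), and both of these groups overlapped wt/fl. In fl/fl it was at 3105 and 3812 CPM with Gdf9-Cre and at 3750.3 and 2655 CPM with Zp3-Cre. In CPM all 4 lay above the highest wt/fl library. This did not hold on library sizes scaled by TMM factors, which the tests below use. There fl/fl Zp3-Cre replicate 2 was at 2567, below wt/fl replicate 3 at 2671.

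Tle6 was at 1623, 2147, 1683 and 2113 CPM in wt/fl (1892 ± 277), a spread in which 2 libraries lay well above the other 2. It was at 1489, 1407, 1603, 1446 and 1492 CPM in wt/fl Spo11-Cre (1487 ± 73.6). The groups did not overlap in CPM, but the gap was narrow. The highest wt/fl Spo11-Cre library was at 1603 CPM and the lowest wt/fl library at 1623 CPM. On TMM library sizes the groups overlapped, with wt/fl Spo11-Cre replicate 3 at 1649 and wt/fl replicate 1 at 1620. Tle6 was at 1672, 1592, 1631 and 1841 CPM in fl/del (1684 ± 109.8) and at 1749.7, 1259, 1695 and 1324 CPM in fl/del Spo11-Cre (1507 ± 251). Both overlapped wt/fl, and the last group held 2 libraries below every wt/fl Spo11-Cre library and 2 within the wt/fl range. In fl/fl, Tle6 was at 1860.2 and 1497 CPM with Gdf9-Cre and at 1749.9 and 2163 CPM with Zp3-Cre.

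Nlrp5, which encodes the core protein MATER, was at 1549, 2197, 1765 and 2447 CPM in wt/fl (1989.5 ± 407) and at 1680.5, 1838, 2404, 2180.4 and 2302 CPM in wt/fl Spo11-Cre (2081 ± 309). It was at 2144, 2409.7, 2082 and 1914 CPM in fl/del (2137 ± 206) and at 2121, 1489.9, 2209 and 1204 CPM in fl/del Spo11-Cre (1756 ± 488). All 4 groups overlapped, and fl/del Spo11-Cre replicates 2 and 4 lay below every wt/fl library. The fl/fl libraries spanned the whole range of the gene, with 1898 and 916.04 CPM under Gdf9-Cre and 878 and 3030.3 CPM under Zp3-Cre.

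Padi6 was at 2388, 3545, 2601 and 3393 CPM in wt/fl (2982 ± 573) and at 2397, 2287, 3246, 2585 and 2903 CPM in wt/fl Spo11-Cre (2684 ± 392). It was at 3340.5, 3064, 2726 and 2971 CPM in fl/del (3025 ± 254) and at 3128, 2041, 2918 and 1836 CPM in fl/del Spo11-Cre (2481 ± 637). Here too the groups overlapped, and the same fl/del Spo11-Cre replicates 2 and 4 were the lowest of the 17 libraries of the Spo11-Cre background. In fl/fl, Padi6 was at 3940.0 and 2350.0 CPM with Gdf9-Cre and at 2331 and 4373 CPM with Zp3-Cre.

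Among the other NOD-like receptor genes, Nlrp2 was at 363, 405, 315 and 453 CPM in wt/fl (384 ± 58.7). Values ran from 348 to 426 CPM (389 ± 31.4) with Spo11-Cre added, from 362 to 437 (393 ± 35.5) in fl/del and from 322 to 417 (376 ± 39.7) in fl/del Spo11-Cre. These 3 groups all overlapped wt/fl. In fl/fl it was at 348 and 218 CPM with Gdf9-Cre and at 225 and 502 CPM with Zp3-Cre. Nlrp4f was at 1424, 1356, 1418 and 1427 CPM in wt/fl, where they lay close together (1406 ± 33.8), at 1457 ± 93.1 in wt/fl Spo11-Cre, at 1466 ± 92.6 in fl/del and at 1357 ± 116 in fl/del Spo11-Cre. In fl/fl it was at 1378 and 928 CPM with Gdf9-Cre and at 1200.4 and 2240.5 CPM with Zp3-Cre. Both genes thus had their lowest library in fl/fl Gdf9-Cre and their highest in fl/fl Zp3-Cre.

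Zbed3 was at 4937, 4972, 5123 and 5681 CPM in wt/fl (5179 ± 345) and at 4509.8, 4496, 4719 and 4588 CPM in fl/del Spo11-Cre (4578 ± 102). Every fl/del Spo11-Cre library lay below every wt/fl library, a separation whose share over all genes was not counted. It was at 5096 ± 706 CPM in wt/fl Spo11-Cre and 4765 ± 513 in fl/del, overlapping wt/fl, at 5617 and 4403 CPM with Gdf9-Cre and at 4184 and 4267 CPM with Zp3-Cre. Khdc3, a KH domain gene known for a role in genome stability, was at 78.3, 85.0, 91.4 and 92.6 CPM in wt/fl (86.8 ± 6.60), at 85.7 ± 8.89 in wt/fl Spo11-Cre, at 81.2 ± 4.98 in fl/del and at 82.4 ± 11.0 in fl/del Spo11-Cre. Its highest library, at 114 CPM, was fl/fl Zp3-Cre replicate 1, and the other fl/fl Zp3-Cre library, at 99.5 CPM, also lay above wt/fl. The fl/fl Gdf9-Cre libraries had 99.6 and 84.0 CPM.

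**Figure D2:**
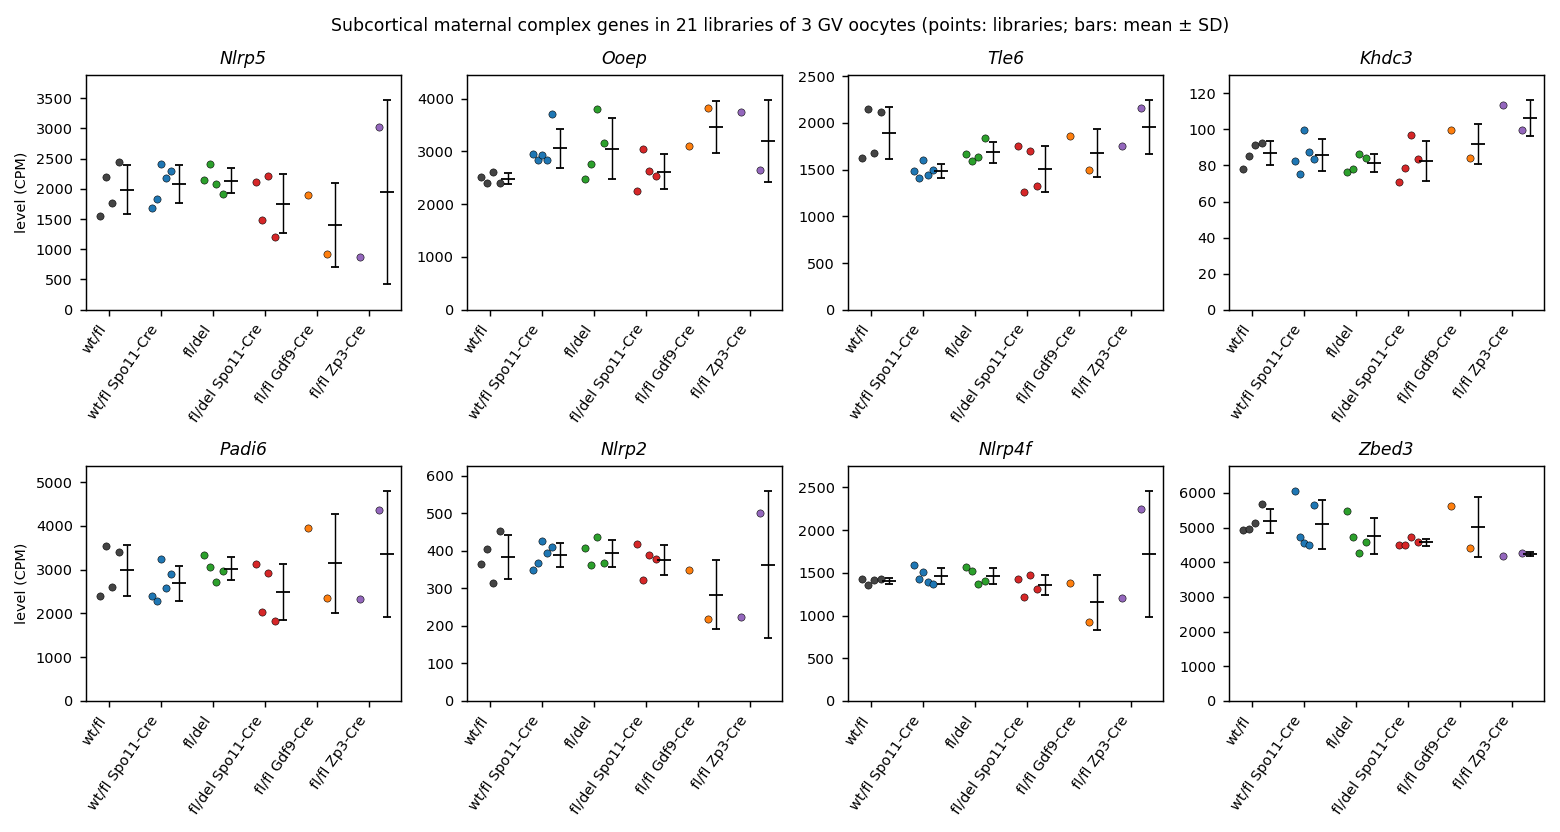
CPM of each of the 8 genes in the 6 groups, with a point for each library and bars for the mean ± SD (axes start at 0). Without overlap in CPM, Ooep in wt/fl Spo11-Cre lies above wt/fl and Tle6 lies below it, although Tle6 overlaps on TMM library sizes. The 2 libraries of each fl/fl group stand far apart for Nlrp5, Padi6, Nlrp2 and Nlrp4f.

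The comparison of wt/fl Spo11-Cre with wt/fl was made first. Spo11-Cre also deletes the floxed Kif11 allele, and no group carried Cre without a floxed allele. The transgene and the loss of this allele therefore cannot be told apart, here or in the Spo11-Cre effects below. Ooep rose and Tle6 fell, and the other 6 genes did not pass the test. Ooep was 25.4% higher in wt/fl Spo11-Cre than in wt/fl (log2 fold change 0.33, SE 0.0872, 95% CI 0.15 to 0.50, adjusted p = 0.0292, edgeR quasi-likelihood test with Benjamini-Hochberg adjustment over all 22383 genes). Tle6 was lower by a log2 fold change of -0.32 (SE 0.0843, 95% CI -0.49 to -0.15, adjusted p = 0.0249). The other 6 ranged from -0.13 for Padi6 to 0.09 for Nlrp5, and their intervals reached no further than -0.34 and 0.32. The count of 2 called members of 8 stands against 2.19% of all genes tested (491 of 22383), and the median log2 fold change was 0.02 over the 8 genes and 0.03 over all genes. Both calls rested on particular libraries. The Tle6 call was lost without wt/fl replicate 2 (adjusted p = 0.187), wt/fl replicate 4 (0.146), wt/fl Spo11-Cre replicate 2 (0.0686) or wt/fl Spo11-Cre replicate 4 (0.0644), and the Ooep call without wt/fl replicate 1 (0.0577), replicate 2 (0.115) or replicate 4 (0.0861) or wt/fl Spo11-Cre replicate 5 (0.169).

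The levels of Ooep and Tle6 also moved with a feature of the libraries, the balance between long and short transcripts. It was taken per library as the median log2 deviation of 2608 genes whose longest transcript has 4000 bases or more, minus that of 640 genes under 1000 bases. The mean of this measure was 0.12 in wt/fl (range -0.01 to 0.22) and -0.11 in wt/fl Spo11-Cre (range -0.38 to 0.01). Over the 21 libraries, which differed in depth and some of which may share a mouse, it had a Pearson correlation of -0.73 with Ooep (Spearman -0.68, and -0.65 without the 2 libraries farthest from its median) and of 0.69 with Tle6 (Spearman 0.76, and 0.70 without those 2). The longest transcripts of the pair, 2138 bases for Ooep and 2015 bases for Tle6, are of similar length. The Pearson correlation was 0.54 for Padi6, 0.45 for Nlrp4f and between 0.11 and 0.28 for the other 4. All of these correlations used log2 CPM on TMM library sizes. With the measure as a covariate, an alternative chosen after seeing the data, the difference between wt/fl Spo11-Cre and wt/fl was 0.06 for Ooep (adjusted p = 0.855) and -0.20 for Tle6 (adjusted p = 0.433), and 64 genes in all were called. What sets the balance was not tested.

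**Figure D3:**
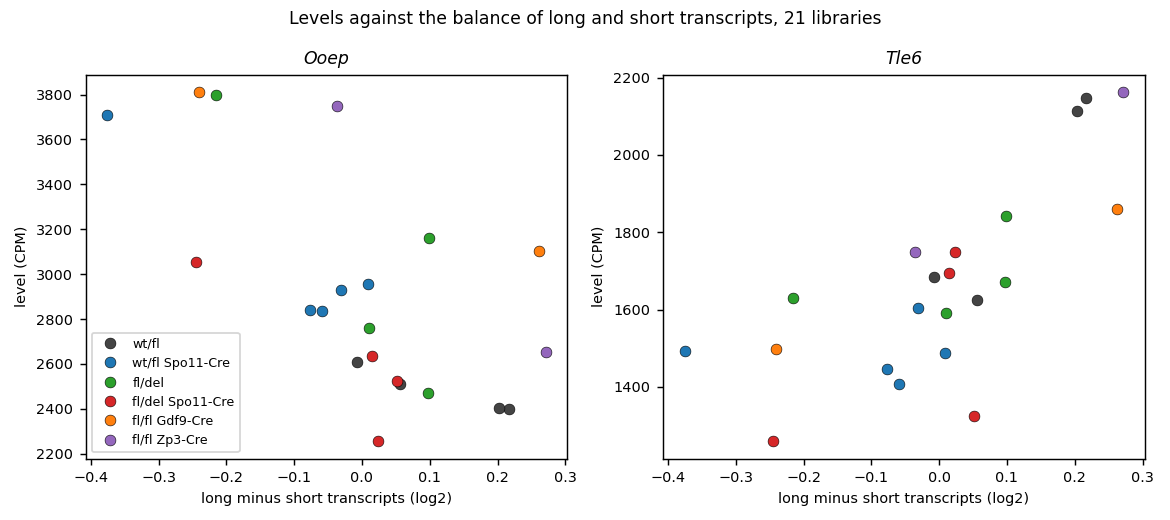
CPM of Ooep and of Tle6 against the balance of long and short transcripts (log2, long minus short), with a point for each of the 21 libraries coloured by group. Ooep is higher and Tle6 lower in libraries with less signal from long transcripts. The Pearson correlations of -0.73 and 0.69 are of log2 CPM on TMM library sizes, not of the CPM drawn.

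Loss of a Kif11 allele from the whole animal was compared next. None of the 8 genes passed the test between fl/del and wt/fl, where 0.0223% of all genes (5 of 22383) were called. By edgeR, 1 member had an unadjusted p under 0.05, as had 1906 of the 22383 genes tested. This member was Ooep, with a log2 fold change of 0.31 (95% CI 0.13 to 0.49, adjusted p = 0.322), and of 0.19 without fl/del replicate 3. The other 7 ranged from -0.15 for Tle6 to 0.12 for Nlrp5. In fl/del Spo11-Cre, the floxed allele is also deleted from early meiosis. Again 0 of the 8 passed there, against 0.197% of all genes (44 of 22383). An unadjusted p under 0.05 was found for 3 members, and for 2334 of the 22383 genes. Tle6 had a log2 fold change of -0.33 (95% CI -0.51 to -0.15, adjusted p = 0.0967), Padi6 of -0.27 (95% CI -0.49 to -0.04, adjusted p = 0.410) and Zbed3 of -0.18 (95% CI -0.35 to -0.02, adjusted p = 0.432). The other 5 lay between -0.18 for Nlrp5 and 0.07 for Ooep. The median of the 8 was -0.13 against 0.01 over all genes. Tle6 passed the test when fl/del Spo11-Cre replicate 1 was left out (-0.42, adjusted p = 0.0235) and when wt/fl replicate 1 was (-0.40, adjusted p = 0.0342). Padi6 was at -0.14 without fl/del Spo11-Cre replicate 4, at -0.18 without wt/fl replicate 2 and at -0.40 without fl/del Spo11-Cre replicate 1, and passed in none of these. These comparisons, that of wt/fl Spo11-Cre and that of fl/fl below all share the wt/fl libraries, so their values are not independent of each other.

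**Figure D4:**
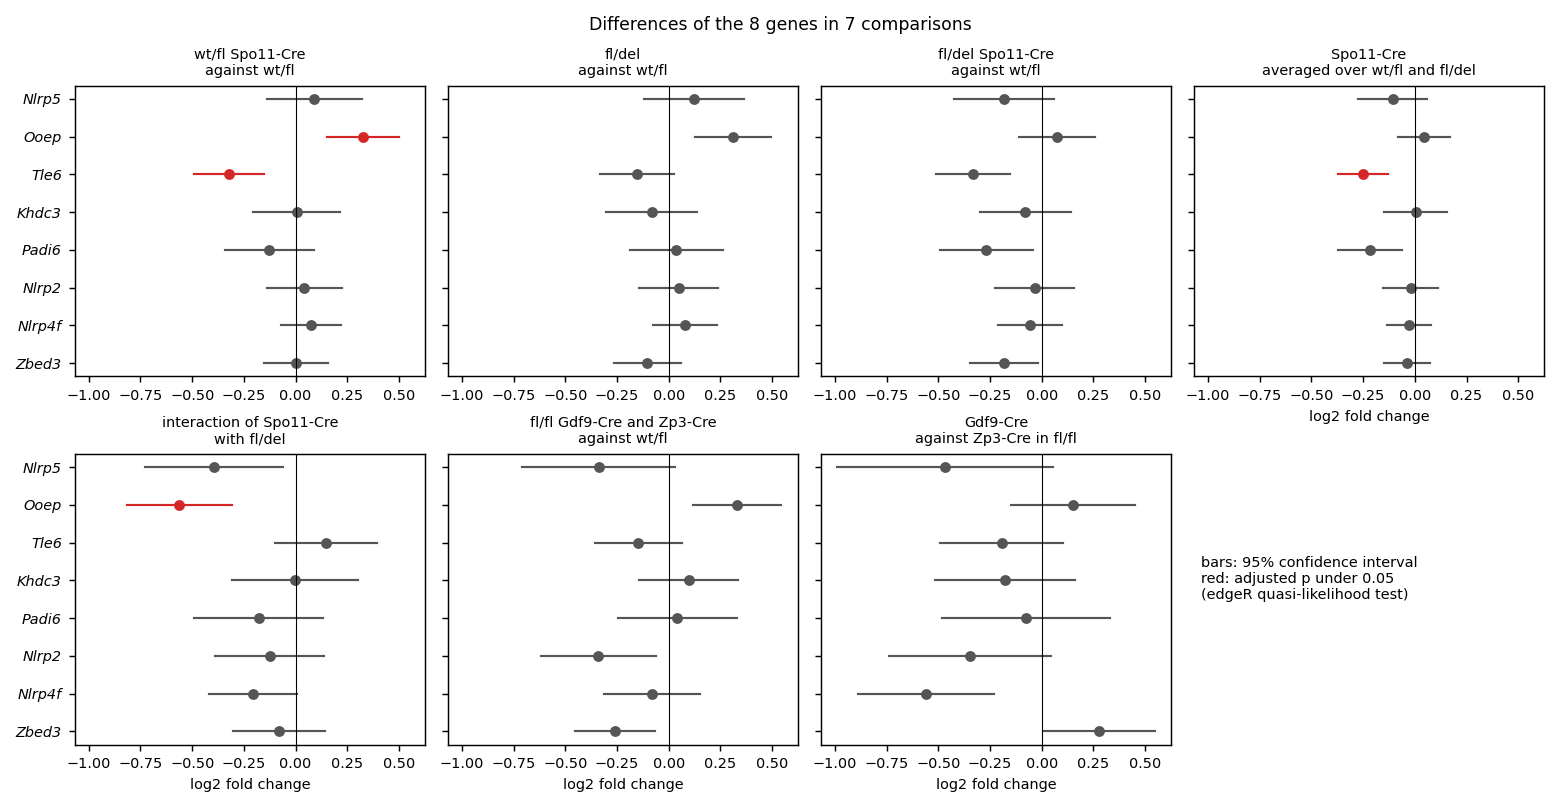
Log2 fold change of each gene in the 7 comparisons, with bars for the 95% confidence interval and red for an adjusted p under 0.05 (edgeR quasi-likelihood test). Ooep and Tle6 are red in wt/fl Spo11-Cre against wt/fl, Tle6 in the averaged Spo11-Cre effect and Ooep in the interaction, and no gene is red in the other 4 panels.

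Taking the 17 libraries as a 2 by 2 design, the Spo11-Cre effect was averaged over both genotypes and compared between them. This effect joins the transgene and the deletion of the floxed allele. Averaged, Tle6 fell by 0.25 on the log2 scale (SE 0.0614, 95% CI -0.37 to -0.13, adjusted p = 0.0196), and it alone passed of the 8, against 1.43% of all genes (320 of 22383). Padi6 was at -0.22 (95% CI -0.37 to -0.06, adjusted p = 0.162), and the other 6 lay between -0.11 for Nlrp5 and 0.05 for Ooep. The Tle6 call was lost without wt/fl replicate 2 (adjusted p = 0.0788), wt/fl replicate 4 (0.0642), fl/del Spo11-Cre replicate 2 (0.0790) or fl/del Spo11-Cre replicate 4 (0.0646), and with the length balance as a covariate (-0.18, adjusted p = 0.177).

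The Spo11-Cre effect on Ooep differed between the genotypes. In wt/fl, the mean with Spo11-Cre was above that without, 3054 against 2480.2 CPM, and in fl/del it was below, 2617 against 3047 CPM. The interaction was -0.56 on the log2 scale (SE 0.126, 95% CI -0.81 to -0.31, adjusted p = 0.0485), close to the threshold of 0.05, with 0.103% of all genes called (23 of 22383). Nlrp5 had the next largest interaction, -0.39 (95% CI -0.73 to -0.06, adjusted p = 0.377, and -0.25 without fl/del Spo11-Cre replicate 4), and the remaining 6 lay between -0.21 for Nlrp4f and 0.15 for Tle6. The Ooep interaction kept its direction in all 28 alternatives, between -0.65 and -0.34, and passed the test in 11 of them. It was lost without wt/fl replicate 1, 2 or 4, wt/fl Spo11-Cre replicate 2 or 5, fl/del replicate 2, 3 or 4, or fl/del Spo11-Cre replicate 1, 3 or 4, with adjusted p from 0.0538 to 0.178. The smallest came without fl/del replicate 3, the highest Ooep library of its group (-0.45, adjusted p = 0.178). With libraries of a shared name prefix, which may be of 1 mouse, summed to 1 sample, it was -0.57 (adjusted p = 0.132), and with the prefix as a random block -0.50 (limma voom adjusted p = 0.222). With the length balance as a covariate the interaction was -0.34 (adjusted p = 0.214).

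The later drivers were compared with wt/fl as the mean of the 2 fl/fl groups. The fl/fl libraries had 7801470 to 10759741 total counts, against 12729969 to 14283549 in wt/fl. Their handling is not given in the methods, and no fl/fl group lacked Cre. Driver, genotype and handling therefore cannot be told apart in this comparison. None of the 8 genes passed the test, against 2.79% of all genes (647 of 23225). An unadjusted p under 0.05 was found for 3 of them, and for 3312 of the 23225 genes. Ooep had a log2 fold change of 0.33 (95% CI 0.12 to 0.54, adjusted p = 0.0775), Zbed3 of -0.26 (95% CI -0.45 to -0.07, adjusted p = 0.151) and Nlrp2 of -0.34 (95% CI -0.62 to -0.06, adjusted p = 0.216). Nlrp5 was at -0.34 with a wide interval (95% CI -0.71 to 0.03, adjusted p = 0.397), and the other 4 lay between -0.15 for Tle6 and 0.10 for Khdc3. With the length balance as a covariate, Ooep passed the test at 0.27 (adjusted p = 0.0175). Between Gdf9-Cre and Zp3-Cre, 0 of the 8 passed, against 0.891% of all genes (207 of 23225). An unadjusted p under 0.05 was found for 2 of them, and for 1659 of the 23225 genes. Nlrp4f had a log2 fold change of -0.56 (Gdf9-Cre minus Zp3-Cre, 95% CI -0.89 to -0.23, adjusted p = 0.0911) and Zbed3 of 0.28 (adjusted p = 0.672). Nlrp5 was at -0.47 (95% CI -0.99 to 0.06), Nlrp2 at -0.35, and the other 4 lay between -0.19 for Tle6 and 0.15 for Ooep.

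These fl/fl values depended on which libraries entered. The libraries fl/fl Gdf9-Cre replicate 2 and fl/fl Zp3-Cre replicate 1 were low in Nlrp5, Nlrp2 and Nlrp4f, and fl/fl Zp3-Cre replicate 2 was high in all 3. Padi6 was split in the same way. It was at 2350 and 2331 CPM in the low libraries, 3940 in fl/fl Gdf9-Cre replicate 1 and 4373 in fl/fl Zp3-Cre replicate 2. Without fl/fl Zp3-Cre replicate 2, 4 of the 8 genes passed against wt/fl: Nlrp5 at -0.94 (adjusted p = 3.01e-05), Nlrp2 at -0.71 (5.71e-05), Ooep at 0.44 (0.00523) and Nlrp4f at -0.36 (0.0192). Without fl/fl Gdf9-Cre replicate 1, Ooep (0.41, adjusted p = 0.0274), Nlrp2 (-0.52, 0.0325) and Zbed3 (-0.34, 0.0496) passed. Without both of the low libraries, an alternative chosen after seeing the data, Nlrp5 was at 0.21, Nlrp2 at 0.07 and Nlrp4f at 0.26, each on the other side of 0 and none called. Between the drivers, leaving out fl/fl Zp3-Cre replicate 1 gave -1.12 for Nlrp5 (adjusted p = 0.00384), -0.97 for Nlrp4f (4.50e-05) and -0.83 for Nlrp2 (0.00797). Leaving out fl/fl Gdf9-Cre replicate 1 gave -0.87 for Nlrp4f (adjusted p = 0.00973), and leaving out both low libraries -0.71 (0.0118). Where a driver was left with 1 library, its spread was not measured and is assumed to be that of the other groups, so these p-values rest on that assumption. Zbed3 between the drivers was at 0.095 without fl/fl Gdf9-Cre replicate 1 and at 0.44 without fl/fl Gdf9-Cre replicate 2, and against wt/fl at -0.17 without the latter. Leaving out both low libraries gave 0.15 for Ooep and -0.14 for Zbed3 against wt/fl, where all libraries gave 0.33 and -0.26. With 2 libraries a group, the difference between drivers and the difference between libraries cannot be told apart. The length balance was 0.26 and -0.24 in the 2 Gdf9-Cre libraries and -0.04 and 0.27 in the 2 Zp3-Cre libraries, so that in each group the library low in Nlrp5 was also the lower in this balance. With the balance as a covariate, Nlrp5 was at -0.35 against wt/fl (adjusted p = 0.245) and at -0.30 between the drivers (adjusted p = 0.819). Nlrp2 was at -0.33 and -0.24 and Nlrp4f at -0.07 and -0.45, and none of the 3 passed.

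**Figure D5:**
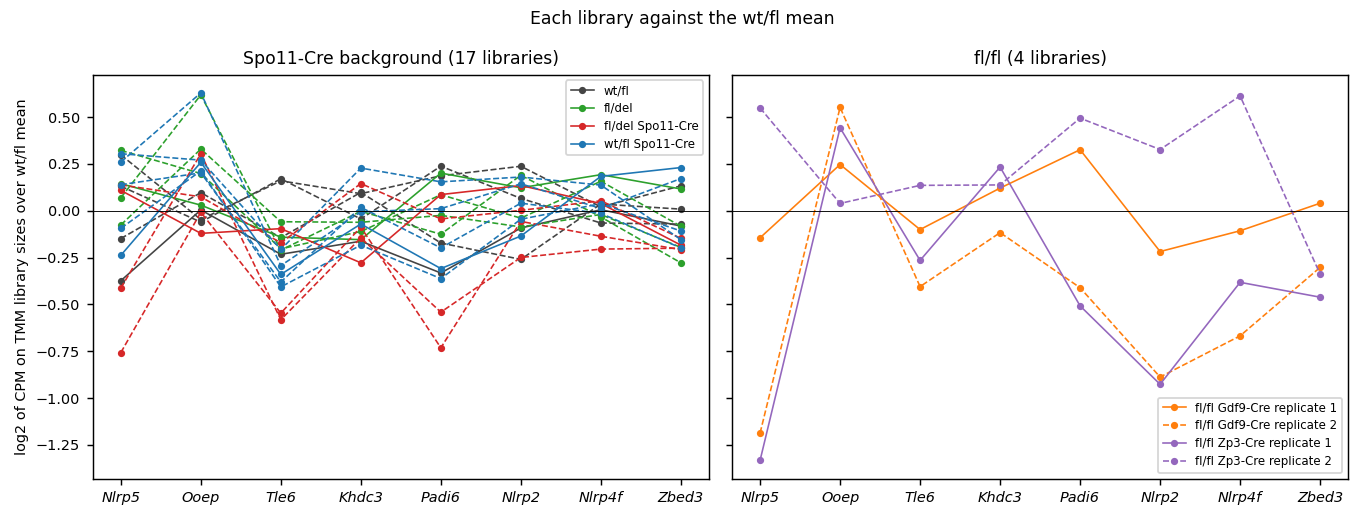
Log2 of CPM on TMM library sizes over the wt/fl mean for the 8 genes, with a line for each library (solid for replicate 1, dashed for the others), the 17 libraries of the Spo11-Cre background on the left and the 4 fl/fl libraries on the right. The fl/fl libraries Gdf9-Cre replicate 2 and Zp3-Cre replicate 1 run below 0 for Nlrp5, Padi6, Nlrp2 and Nlrp4f, and Zp3-Cre replicate 2 runs above it.

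Within groups, several of the genes went up and down together from library to library. As deviations from group means over the 21 libraries, the Pearson correlation was 0.94 between Nlrp5 and Padi6 (Spearman 0.95, and 0.94 without the 2 libraries farthest from the Nlrp5 median) and 0.92 between Tle6 and Padi6 (Spearman 0.92, and 0.92). It was 0.80 between Nlrp5 and Tle6. Without the fl/fl libraries these 3 pairs had 0.92, 0.90 and 0.78 (17 libraries), so they did not rest on them. The correlation of Nlrp5 with Nlrp2 (0.90 over 21, 0.65 over 17) and with Nlrp4f (0.84 over 21, 0.38 over 17) was lower when those were left out. Ooep went the other way, from -0.64 with Nlrp4f to -0.27 with Zbed3, and 0.18 with Khdc3, over 21 libraries. Over 17 libraries it was -0.57 with Nlrp4f and -0.11 with Nlrp5. These are descriptions over libraries that were each made from 3 oocytes and that differed in depth and in the length balance.

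The windows upstream of the annotated starts of the most alike pair are shown, since these are the members that varied together most. They are 250 bases from RefSeq (GRCm38.p6), written 5′ to 3′ on the strand of the gene, at chr7:23385639-23385888 (plus strand) for Nlrp5 and chr4:140742644-140742893 (minus strand) for Padi6, and neither holds an annotated exon. Nlrp5 has a second annotated start, at position 23404102 of chromosome 7, and the window shown is that of the start at the 5′ end of the gene. Capitals mark the letters CANNTG, the E-box, a motif bound by basic helix-loop-helix factors such as FIGLA, which reads the same on both strands in this form.
Nlrp5: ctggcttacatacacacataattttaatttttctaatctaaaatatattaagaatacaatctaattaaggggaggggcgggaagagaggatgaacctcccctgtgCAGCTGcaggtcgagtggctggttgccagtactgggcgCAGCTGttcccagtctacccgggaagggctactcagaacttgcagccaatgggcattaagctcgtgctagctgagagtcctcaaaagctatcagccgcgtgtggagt
Padi6: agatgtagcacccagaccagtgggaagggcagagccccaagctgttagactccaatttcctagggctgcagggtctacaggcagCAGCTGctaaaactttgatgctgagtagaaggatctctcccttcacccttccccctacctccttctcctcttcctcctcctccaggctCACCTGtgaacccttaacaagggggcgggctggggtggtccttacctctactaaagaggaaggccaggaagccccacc
Each window holds 2 such motifs, 145 and 107 bases before that start of Nlrp5 and 166 and 78 bases before that of Padi6. The window of the second Nlrp5 start also holds 2, at 186 and 172 bases before it. The motif is common, present in 66.2% of 32851 windows of this length, and the matches are a description of these letters only.

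Beyond the 8, the genes whose level most followed their mean over the 21 libraries, among 7755 genes at a mean of 10 CPM or more, were other oocyte genes. Nlrp14, a NOD-like receptor gene of germ cells, had a Pearson correlation of 0.97, and Tacc3, which encodes a protein of the spindle, had 0.96. Zp2, a gene of the zona pellucida, followed with 0.94, Bmp15, an oocyte growth factor, with 0.93, and Nlrp9b with 0.91. Over the 17 libraries without fl/fl, the 5 correlations lay between 0.74 for Nlrp9b and 0.93 for Nlrp14.

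Of 10 partners of the complex or of the lattices, all 10 were measured, and few passed in any comparison. Uhrf1, which brings DNMT1 to newly replicated DNA, fell in wt/fl Spo11-Cre against wt/fl (-0.49, edgeR adjusted p = 0.00453), in fl/del Spo11-Cre against wt/fl (-0.49, adjusted p = 0.0230) and in the averaged Spo11-Cre effect (-0.37, adjusted p = 0.00337), and was the only partner called in each. In fl/fl against wt/fl, Tubb2b, a beta tubulin, was higher (1.02, adjusted p = 0.000395). Cfl1, which severs actin filaments, was lower there (-0.45, adjusted p = 0.00178). For both genes, driver, genotype and handling cannot be told apart. Dnmt1, the maintenance DNA methyltransferase, was higher in the 2 Gdf9-Cre than in the 2 Zp3-Cre libraries (0.69, adjusted p = 0.00369). As for the members, driver and library cannot be told apart here. Of all genes, 207 were called between the drivers, and 7 when only the groups compared were fitted. Calls of genes of the lists are given without left-out libraries. No partner passed in fl/del against wt/fl or in the interaction. There 1 and 2 of the 10 were at an unadjusted p under 0.05, against 1906 and 2311 of the 22383 genes tested. The medians of the 10 lay between -0.10 and 0.06 in the 7 comparisons.

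Of 27 genes from the families of the members, 22 or 23 were counted often enough to be tested. In wt/fl Spo11-Cre against wt/fl, 2 rose, Nlrp9b (0.36, edgeR adjusted p = 0.00743) and Nlrp9c (0.30, adjusted p = 0.0210), and 0 fell. In the averaged effect Nlrp4e fell (-0.37, adjusted p = 0.00234), and in the interaction Nlrp9b was called (-0.57, adjusted p = 0.0253), the same sign as Ooep. Against wt/fl, the fl/fl libraries had lower Nlrp9b (-0.73, adjusted p = 0.000391) and higher Khdc1a (1.31, adjusted p = 0.000830) and Khdc1c (0.93, adjusted p = 0.00800), KH domain relatives of Ooep and Khdc3. As for Tubb2b and Cfl1, driver, genotype and handling cannot be told apart in that comparison. None of the family genes passed in fl/del, in fl/del Spo11-Cre or between the drivers, with 6, 5 and 4 at an unadjusted p under 0.05. Of all genes, 1906 and 2334 of 22383 and 1659 of 23225 were at such a p in these comparisons. Reads of the Nlrp9 and Khdc1 genes can be shared among close copies, so their values are uncertain.

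Of 15 other maternal effect genes, all 15 were tested. Zar1, which encodes an RNA-binding protein of the egg, fell in wt/fl Spo11-Cre against wt/fl (-0.32, edgeR adjusted p = 0.00994), the sole call there. In fl/fl against wt/fl, Zfp57, a zinc finger gene that keeps imprints, was lower (-0.80, adjusted p = 6.63e-07). Hsf1, the heat shock factor, was also lower (-0.50, adjusted p = 0.0169). Here too, driver, genotype and handling cannot be told apart. Between the drivers, Ctcf, an insulator-binding gene, was higher with Gdf9-Cre (0.66, adjusted p = 0.0148), and Trim28, a corepressor (-0.95, adjusted p = 0.0175), and Hsf1 (-0.72, adjusted p = 0.0294) were lower. As for Dnmt1, driver and library cannot be told apart for these genes. None passed in fl/del, in fl/del Spo11-Cre, in the averaged effect or in the interaction. There 3, 1, 4 and 3 of the 15 were at an unadjusted p under 0.05, against 1906, 2334, 3195 and 2311 of the 22383 genes tested.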

How the data were processed

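Libraries were made, per the study's methods, from 3 oocytes each with SMART-seq v4 cDNA and Nextera XT, and read as 150-bp paired ends on HiSeqX. Reads were trimmed with fastp, aligned with HISAT2 v2.2.1 to GRCm38 and counted with featureCounts v2.0.3 and Ensembl release 93. The methods count 17 libraries, and how the 4 fl/fl libraries were handled is not given there. The deposited counts are whole, unique reads per gene in which the authors counted every gene over all exons, and the deposited TPM values are scaled by gene length by the authors. Kit and counting do not separate strands. A further deposited count table, with Kif11 counted over exon 22, served as an alternative, and the exon 1 tables and the TPM table for exon 22 were not used. Groups came from the sample labels.

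CPM was the count divided by the sum over all genes of that library, times 1000000. Differences were tested with edgeR 4.0.16 (R 4.3.3), quasi-likelihood, TMM factors and Benjamini-Hochberg adjustment over all genes detected (count over 0) in 3 or more libraries, with calls at an adjusted p under 0.05. The 17 libraries of the Spo11-Cre background were fitted together, and all 21 for comparisons with fl/fl. Standard errors and 95% intervals came from the same fit, and a log2 fold change is the first-named group minus the second. Counts of each member were 623 to 102280 per library, and their precision is limited by the spread between libraries. Scripts were tested on simulated counts. The members, lists and tests were chosen with earlier results of these data known. Named genes are the 8 members, Kif11, called genes of the lists (at most 3 per list and comparison) and the 5 genes most alike the mean of the members. Alternatives were DESeq2 1.42.0, RLE factors, filterByExpr or no filter, the groups compared or all 21 libraries in the fit, the exon 22 table, limma 3.58.1 on log2(TPM + 1), the replicate block, libraries with a shared name prefix summed or as a random block, and each library left out. The length balance as a covariate and the exclusion of 2 fl/fl libraries were added after seeing the data. Promoter windows are RefSeq sequences (GRCm38.p6) for all 8 members, with CANNTG searched in 250 bases upstream of the start.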

Additional observations from a re-analysis of the deposited data

Results flagged for a closer look

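Among 32 sets of libraries, of 1 gene in 1 group of 4 or 5, the value farthest out was separated from the rest by more than Dixon's 95% limit in 2, where chance alone gives about 1 in 20. Ooep was at 3709 CPM in wt/fl Spo11-Cre replicate 5, with the gap to the next library taking 0.861 of the range of its group. This library also had the lowest balance of long over short transcripts of all 21 (-0.38), and the Ooep call in wt/fl Spo11-Cre was lost without it. Nlrp4f was at 1356 CPM in wt/fl replicate 2, with a gap of 0.869 of the range, in a group whose other libraries lay between 1418 and 1427 CPM.

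The Spo11-Cre effect on Ooep differed between fl/del and wt/fl by -0.56 on the log2 scale, by the test of the interaction itself (edgeR adjusted p = 0.0485). The value was -0.47 without wt/fl Spo11-Cre replicate 5 and -0.45 without fl/del replicate 3, the highest Ooep libraries of their groups, and neither passed the test.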

How the results depend on the processing

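Of 1224 alternatives over the 56 pairs of a member and a comparison, 74 changed the sign, 0 of these with a call, and 30 of 56 pairs never changed it. Called members numbered 2 in wt/fl Spo11-Cre against wt/fl, and 1 under filterByExpr and 0 with all 21 libraries in the fit, by limma on TPM or with the length covariate, with a range of 0 to 2 over left-out libraries. In fl/del, 0 became 1 without a filter. In fl/del Spo11-Cre, 0 became 1 without a filter, with 0 to 1 over left-out libraries. The averaged effect went from 1 to 2 without a filter and to 0 with all 21 libraries, by limma or with the length covariate (0 to 2 over left-out libraries). The interaction went from 1 to 0 under filterByExpr, with all 21 libraries, by limma, with libraries of a shared prefix summed or as a random block, and with the length covariate (0 to 1). In fl/fl against wt/fl, 0 became 1 by DESeq2, 3 without a filter and 1 with the length covariate (0 to 4), and between the drivers 2 without a filter and 1 without both low libraries (0 to 3). The cause was not tested, beyond the fewer libraries or other genes each fit used.

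Where a member had an unadjusted p under 0.05 or a call under any setting, its sign reversed only in fl/fl. Against wt/fl, leaving out both low libraries gave 0.21 for Nlrp5, 0.066 for Nlrp2 and 0.26 for Nlrp4f. Over left-out libraries Nlrp5 ranged from -0.94 to -0.00239, Nlrp2 from -0.71 to -0.0838 and Nlrp4f from -0.36 to 0.14. Between the drivers, left-out libraries gave -1.12 to 0.76 for Nlrp5, -0.83 to 0.42 for Nlrp2 and -0.97 to 0.025 for Nlrp4f.

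Calls over all genes, in the order of the 7 comparisons above, moved by more than 1.5 times as follows. DESeq2 called 931, 21, 158, 544, 74, 1075 and 381 genes against 491, 5, 44, 320, 23, 647 and 207. Without a filter, 742, 80, 185, 532 and 138 were called in the first 5. Limma on TPM called 79, 0 (1637 at an unadjusted p under 0.05), 17, 74 and 0 in them, and filterByExpr 2, 29 and 2 in fl/del, fl/del Spo11-Cre and the interaction. With all 21 libraries 252, 170 and 4 were called for wt/fl Spo11-Cre, the averaged effect and the interaction. The length covariate gave 64 for wt/fl Spo11-Cre, 166 averaged, 8 for the interaction, 996 for fl/fl and 351 between the drivers. Fits of only the groups compared gave 238 for fl/fl and 7 between the drivers, counts of the exon 22 file 42 for the interaction and 83 for fl/del Spo11-Cre, summed name prefixes 11 for the interaction and 233 for fl/fl, and the random block 1, 29, 5 and 69 for fl/del, fl/del Spo11-Cre, the interaction and the drivers. Over left-out libraries the 7 counts ranged from 179 to 575, 1 to 18, 30 to 71, 175 to 375, 4 to 60, 303 to 1353 and 127 to 398.

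The replicate numbers did not pair the libraries: deviations of same-numbered libraries correlated from -0.33 to 0.26 (median -0.01, 42 pairs), and those of other numbers from -0.27 to 0.33. With the replicate block, called members were 1 in fl/del (Ooep 0.30), 2 in fl/del Spo11-Cre (Tle6 -0.34, Padi6 -0.29), 2 averaged, 3 in fl/fl and 1 between the drivers, and 96, 230 and 96 genes were called in fl/del, fl/del Spo11-Cre and the interaction. Levels in CPM moved by more than 1 SD in 6 of 48 with the exon 22 table, all of Khdc3, and in 1 of 48 on TMM sizes (Zbed3 in fl/fl Zp3-Cre, 3956). At 623 counts or more per library, counting error of the members was smaller than the spread between libraries. With 2 to 5 libraries a group, and perhaps fewer mice, that spread limits what can be called. Libraries were left out singly, so a mouse that gave 2 was not left out whole.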
